A study of Mus musculus with 6 samples.

Results

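The genes of B cell receptor signalling and of plasma cells are a list of 30 genes whose transcripts mark B lymphocytes, carry the signal of their antigen receptor, or mark the antibody-secreting plasma cells that B cells become. The list is one of gene symbols, with no threshold on a measured value, and it was drawn up with earlier results of these data known. A probe set was found for 27 of the 30, out of 19505 named genes, and Cd38, Lyn and Pou2f2 were not analysed here. Each of the 27 had 1 probe set. Levels are given on the log2 scale of RMA, the robust multi-array average, so a difference of 1 is a doubling. Values of the submandibular gland, a salivary gland under the jaw, came from 6 female NOD mice aged 10 weeks, with 1 array per mouse. In 3 of them Myd88 was wild type (strain label NOD.B6-Myd88+/+) and in the other 3 both copies carried the targeted allele (NOD.B6-Myd88-/-). Both groups share the NOD background, a strain that develops autoimmune infiltrates of the salivary glands, and no treatment is named. Myd88 carries the signal of most Toll-like receptors, and of interleukin-1 and its relatives, into the cell. The labels name no promoter, Cre line or cell type for the allele, and the construction of the allele is not described in them.

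The B cell receptor is a membrane antibody held together with the chains Cd79a and Cd79b, whose tails are phosphorylated by kinases of the Src family such as Blk and then bind the kinase Syk. Syk and Btk act on the adaptor Blnk and the phospholipase Plcg2, which leads to calcium release. The transcription factors Ebf1 and Pax5 set up this machinery, Spib and Pou2af1 maintain it, and Prdm1 shuts much of it down when a cell turns into a plasma cell. In salivary glands B cells gather with T cells in foci around ducts, and plasma cells between the acini supply the IgA of saliva.

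Of the 30 genes, 25 had at least 1 start site in the RefSeq promoter table of assembly GRCm38.p6, with 31 start sites in all. Lyn, Ms4a1, Blk, Mzb1 and Cd79b had none there and were not searched. The 250 bases before each start were searched on both strands for the octamer ATGCAAAT, which Pou2f2 binds together with its coactivator Pou2af1, for TCCCNNGGGA, a site of Ebf1, for GAGGAAGT, a site of PU.1 and its relative Spib, and for GGGANNTTCC, a site of NF-kB. Of the 31 start sites, 2 had the octamer, against 1.60% of all 32851 promoters, and 1 had the Ebf1 letters (0.779% of all). The PU.1 and Spib letters stood before 3 of the 31 (2.44% of all) and the NF-kB letters before 0 (1.21% of all). For each motif the number of genes was the same as that of start sites. No match overlapped another. The 150 bases before the start are shown for the 3 members with the most negative differences between the genotypes, Blnk, Cd72 and Cd37. They are also shown for Vpreb3 and Cd22. Among the 12 members with both means under background, of which Cd79b and Mzb1 were not searched, only these 2 held a match. Capitals mark the matches. In Blnk (chr19:40994222-40994371, minus strand) the octamer stood on the opposite strand with its first base 130 bases before the start, and in Vpreb3 (chr10:75948150-75948299, plus strand) 45 bases before it. In Cd72 (chr4:43454627-43454776, minus strand) and Cd37 (chr7:45238840-45238989, minus strand) the PU.1 and Spib letters stood on the opposite strand, 49 and 25 bases before the start. In Cd22 (chr7:30879029-30879178, minus strand) the Ebf1 letters stood 49 bases before it. The third match to the PU.1 and Spib letters was in Eaf2, 185 bases before one of its starts. Such a match is a description of the letters and not of binding.
Blnk: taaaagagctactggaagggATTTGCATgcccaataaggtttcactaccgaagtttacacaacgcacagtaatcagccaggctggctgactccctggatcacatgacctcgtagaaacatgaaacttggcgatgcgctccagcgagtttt
Cd72: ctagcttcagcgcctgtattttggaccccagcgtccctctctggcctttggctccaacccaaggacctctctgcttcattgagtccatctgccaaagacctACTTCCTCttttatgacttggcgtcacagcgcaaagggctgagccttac
Cd37: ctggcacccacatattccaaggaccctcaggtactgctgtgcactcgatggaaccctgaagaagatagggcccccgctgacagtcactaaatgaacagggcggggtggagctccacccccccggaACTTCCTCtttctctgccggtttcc
Vpreb3: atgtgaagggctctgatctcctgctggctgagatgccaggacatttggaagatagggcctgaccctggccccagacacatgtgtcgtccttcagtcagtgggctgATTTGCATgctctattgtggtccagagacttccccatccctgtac
Cd22: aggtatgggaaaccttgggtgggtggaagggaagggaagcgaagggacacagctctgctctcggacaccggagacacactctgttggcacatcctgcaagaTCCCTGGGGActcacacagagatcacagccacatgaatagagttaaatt

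The arrays had medians of 6.0 to 6.1 over the tested probe sets and 0 pairs held identical values. The gland was checked by its secretory genes. Klk1, a kallikrein of the ducts, and Prol1, a mucin-like protein of the acini, sat at the ceiling of 19.93 on all arrays, so they carry no comparison. Both group means of all 11 measured epithelial markers lay above the background median. One of them, Dcpp3, was above the background median of its array on only 2 arrays. Background is the median of the 23 antigenomic control probe sets, 5.55, whose own means ran from 3.01 to 6.83. Of all tested probe sets, 40.4% had both group means under that median. The probe set of the targeted gene read 7.81, 7.86 and 7.53 in Myd88+/+ replicates 1 to 3 and 7.33, 6.80 and 7.47 in Myd88-/- replicates 1 to 3. No source used here says whether it lies in the targeted part of the gene, and if it does not, it checks nothing about the labels. Myd88+/+ replicate 3 stood apart in several ways. Among the epithelial markers it read Dcpp3, a secreted protein of salivary demilune and parotid cells, at 14.91 against 4.65 to 6.59 in the other 5 glands, a gene singled out after its values were seen. It was also the highest array for 5 of 5 pan-leukocyte markers. Results are therefore also given without it.

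Most transcripts named for the B lineage were near or under background in glands of both genotypes, and no member passed the test between the genotypes. Of the 27 members, 12 had both group means under the background median, among them Cd79a, Cd79b, Pax5, Cd22, Cr2, Pou2af1, Mzb1 and Prdm1, and 11 lay under the own background median of every array. Relative to Myd88+/+ glands, 20 members read lower and 7 higher in Myd88-/- glands, with a median log2 difference of −0.22 against 0.02 over all 22206 tested probe sets. The 3 most negative differences were those of Blnk (−0.85), Cd72 (−0.78) and Cd37 (−0.78). By limma, 0 of 27 members passed at an adjusted p under 0.05, as did 0% of all tested probe sets. At an unadjusted p under 0.05 limma counted 4 members lower, Blnk, Cd72, Cd37 and Fcmr, against 5.55% of all tested probe sets, and 0 members higher, against 4.5%. The groups did not overlap, on the lower side, in 3 members, Blnk, Cd37 and Ebf1, against 7.25% of all tested probe sets, and on the higher side in 0 members, against 7.84%. Read against these shares, which amount to under 2 genes of 27 on the lower side by either rule, the counts of 4 and 3 members lie little above the background.

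**Figure D1:**
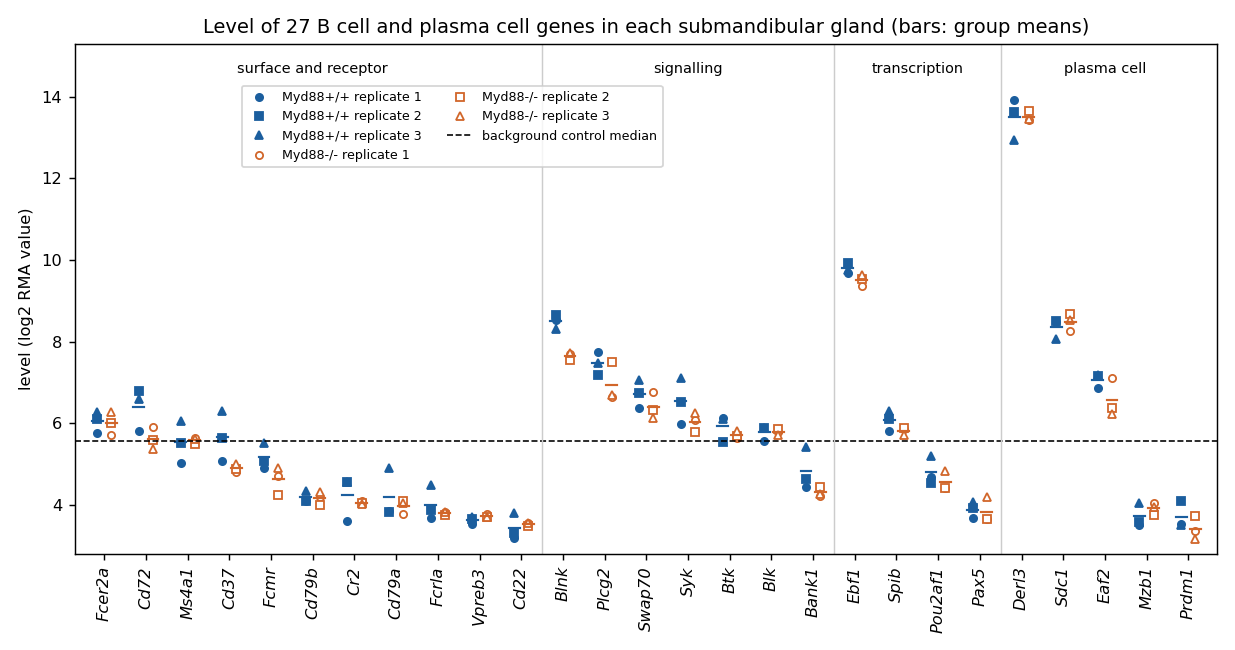
Level of the 27 members in each of the 6 glands, as log2 RMA values, by role and, within a role, by mean. Filled symbols are Myd88+/+ mice, open symbols Myd88-/- mice, short bars group means, and the dashed line is the background control median of 5.55, under which both means of 12 members lie.

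Cd79a and Cd79b, the signalling chains of the antigen receptor, showed no difference beyond the spread between mice. Both lay under the background median of every array. The constant region genes of the receptor's antibody chains were not measured. Cd79a, the first signalling chain, read 3.85, 3.81 and 4.90 in Myd88+/+ replicates 1 to 3 and 3.78, 4.09 and 4.05 in Myd88-/- replicates 1 to 3. Only Myd88+/+ replicate 3 stood out, and even that value was under the background median. The log2 difference of Cd79a was −0.22 with a 95% interval of −0.86 to 0.43 (limma adjusted p = 0.829), and without Myd88+/+ replicate 3 it was 0.14. Cd79b, the second chain, read 4.10, 4.09 and 4.34 and then 4.20, 3.99 and 4.32, a log2 difference of −0.01 (95% interval −0.40 to 0.38, limma adjusted p = 0.993). Vpreb3, a protein that assists assembly of the receptor in B lineage cells, lay between 3.53 and 3.76 on all arrays.

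Ms4a1 encodes CD20, the surface protein used to identify mature B cells. It read 5.02, 5.50 and 6.06 in Myd88+/+ and 5.64, 5.49 and 5.62 in Myd88-/- replicates 1 to 3. The Myd88-/- values lay inside the range of the Myd88+/+ values, and the log2 difference was 0.05 (95% interval −0.52 to 0.62). Fcer2a, the low-affinity receptor for IgE on follicular B cells, read 5.76, 6.10 and 6.28 and then 5.70, 6.01 and 6.27, and the difference was −0.05 (95% interval −0.53 to 0.43). Both of its group means lay above the background median. Cr2, the complement receptor of B cells and follicular dendritic cells, read 3.59, 4.56 and 4.54 and then 4.08, 4.03 and 4.01, with the Myd88-/- glands inside the range of the Myd88+/+ glands. Cd22, a receptor that dampens signalling, and Fcrla, an intracellular Fc receptor-like protein, had differences of 0.09 and −0.21, with all their levels under the background median.

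Cd72, an inhibitory coreceptor of B cells, was the B lineage surface gene with the most negative difference. Its levels were 5.81, 6.79 and 6.60 in Myd88+/+ replicates 1 to 3 and 5.90, 5.59 and 5.36 in Myd88-/- replicates 1 to 3. Myd88+/+ replicates 2 and 3 were above every Myd88-/- gland, while Myd88+/+ replicate 1 lay below Myd88-/- replicate 1, so the groups overlapped. The log2 difference was −0.78 with a standard error (SE) of 0.27, a 1.72-fold lower level (limma adjusted p = 0.429, 0.218 to 0.717 over the settings tried). The level of Cd37, a tetraspanin of B cells and other leukocytes, was 5.06, 5.63 and 6.30 in Myd88+/+ and 4.80, 4.87 and 4.99 in Myd88-/- glands. All 3 Myd88-/- values were below the lowest Myd88+/+ value, by 0.07 at the nearest pair, and the mean of the Myd88-/- glands, 4.89, was under the background median. The log2 difference of Cd37 was −0.78 with an SE of 0.28 (limma adjusted p = 0.44, 0.251 to 0.684 over the settings tried), and it was −0.46 without Myd88+/+ replicate 3 and −1.08 without Myd88+/+ replicate 1. Fcmr, the receptor for IgM, read 4.90, 5.07 and 5.52 and then 4.71, 4.25 and 4.91. Its groups met at 4.90 and 4.91, both means were under the background median, and the log2 difference was −0.54 (limma adjusted p = 0.486), or −0.35 without Myd88-/- replicate 2.

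Among the proteins that relay the signal, 6 of 7 measured members read lower in Myd88-/- glands, with a median log2 difference of −0.51. Blnk, the adaptor that gathers Btk and Plcg2 after Syk has acted, and which macrophages also use, read 8.53, 8.66 and 8.32 in Myd88+/+ and 7.70, 7.54 and 7.71 in Myd88-/- replicates 1 to 3. Every Myd88-/- gland lay well below every Myd88+/+ gland, and the spread within each group was small, with an SD of 0.17 and 0.10 (n = 3 each). The log2 difference of Blnk was −0.85 with an SE of 0.17, a 1.81-fold lower level. Limma gave an adjusted p of 0.321 (0.198 to 0.675 over the settings tried), and a two-sided exact permutation test gave p = 0.1, the lowest value possible with 3 mice in each group. Blnk is the member whose difference moved least when 1 mouse was left out among the 4 with an unadjusted p under 0.05, from −0.95 to −0.77, and without Myd88+/+ replicate 3 it was −0.95.

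Syk, the kinase that binds the phosphorylated receptor tails and that most blood cells express, read 5.99, 6.52 and 7.11 in Myd88+/+ and 6.07, 5.78 and 6.25 in Myd88-/- glands. The groups overlapped, since Myd88+/+ replicate 1 lay among the Myd88-/- glands. Plcg2, the phospholipase downstream of Btk and Blnk, read 7.74, 7.17 and 7.47 and then 6.64, 7.50 and 6.68, where Myd88-/- replicate 2 reached the Myd88+/+ range. Their log2 differences were −0.51 (95% interval −1.13 to 0.12) and −0.52 (95% interval −1.11 to 0.07). That of Syk was −0.22 without Myd88+/+ replicate 3 and −0.79 without Myd88+/+ replicate 1. That of Plcg2 was −0.37 without Myd88-/- replicate 1 and −0.80 without Myd88-/- replicate 2. Bank1, a scaffold of B cells, read 4.43, 4.63 and 5.42 and then 4.22, 4.44 and 4.27, with all values under the background median of their array and a difference of −0.52 that was −0.22 without Myd88+/+ replicate 3. Btk, the kinase that acts with Syk on Blnk and Plcg2, had a difference of −0.21 and overlapping groups of 5.52 to 6.12 and 5.64 to 5.81. Swap70, a protein that binds signalling lipids and actin in B cells and other blood cells, had −0.32, and the kinase gene Blk had 0.00 with an interval of −0.38 to 0.38.

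**Figure D2:**
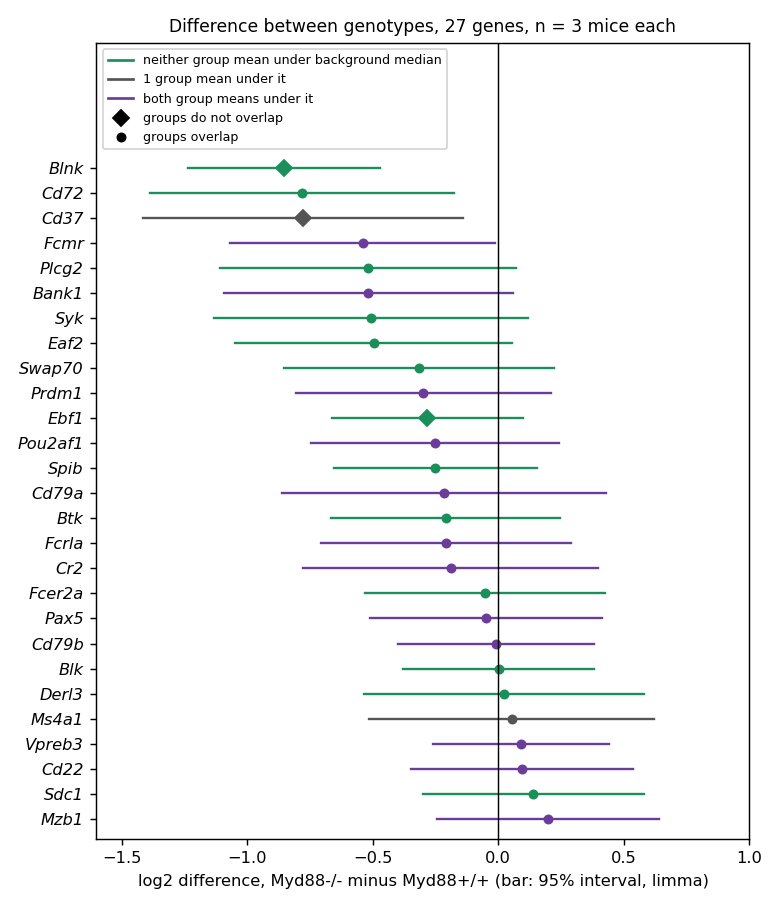
Log2 difference of the 27 members, Myd88-/- minus Myd88+/+, with 95% intervals from limma and n = 3 mice in each group. Diamonds are the 3 members whose groups did not overlap, and the colour gives how many group means lay under the background median. The intervals of 4 members, Blnk, Cd72, Cd37 and Fcmr, lie below 0.

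The transcription factors of the B lineage read slightly lower or alike. Ebf1, which commits cells to the B lineage and is also made by adipocytes and stromal cells, read 9.69, 9.93 and 9.76 in Myd88+/+ and 9.35, 9.55 and 9.63 in Myd88-/- glands. The groups did not overlap, but their nearest values were 9.69 and 9.63, and they overlapped after quantile normalization and after cyclic loess. The log2 difference of Ebf1 was −0.28 (95% interval −0.66 to 0.10, limma adjusted p = 0.607), and it stood beside lower levels of 4 of 5 measured fibroblast and adipocyte markers, such as Col1a2, a collagen chain, with −1.12 and Dcn, a matrix proteoglycan, with −0.46. The 2 adipocyte markers in the list, Adipoq with 0.27 and Plin1 with −0.11, had both means under background and went opposite ways. The summed linear signal of the list, in which Dcn is by far the brightest gene with group means of 17.82 and 17.37, ran from 196007 to 256117 in Myd88+/+ and from 149483 to 202699 in Myd88-/- glands, and its part in the value of Ebf1 was not tested. Pax5, which maintains B cell identity, lay between 3.65 and 4.18 on all arrays, under background, with a difference of −0.05. Pou2af1, the coactivator of the octamer factors, lay between 4.40 and 5.18 with −0.25, and Spib, an Ets factor of B cells and plasmacytoid dendritic cells, lay between 5.71 and 6.28 with −0.25.

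Of the 5 plasma cell members, 2 read lower and 3 higher, with a median difference of 0.02. By limma 0 of 5 had an unadjusted p under 0.05, near the shares of all tested probe sets, 5.55% lower and 4.5% higher. Prdm1, the factor that drives plasma cell formation, lay between 3.15 and 4.09, and Mzb1, a chaperone of antibody assembly in B and plasma cells, between 3.51 and 4.05. Both were under the background median on every array, with differences of −0.30 and 0.20. Sdc1, which marks plasma cells as CD138 and is also a surface proteoglycan of epithelia, read 8.49, 8.50 and 8.06 in Myd88+/+ and 8.26, 8.67 and 8.53 in Myd88-/- glands, a difference of 0.14 (95% interval −0.30 to 0.58). Derl3, which helps remove misfolded proteins from the endoplasmic reticulum of secretory cells, read 13.92, 13.63 and 12.95 and then 13.44, 13.66 and 13.47. Myd88+/+ replicate 3 had the lowest level of both Sdc1 and Derl3 of all 6 glands, the reverse of its place for most other members. Eaf2, a partner of a transcription elongation factor, read 6.87, 7.16 and 7.17 and then 7.11, 6.38 and 6.22, a difference of −0.50 (95% interval −1.05 to 0.05) with Myd88-/- replicate 1 inside the Myd88+/+ range.

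**Figure D3:**
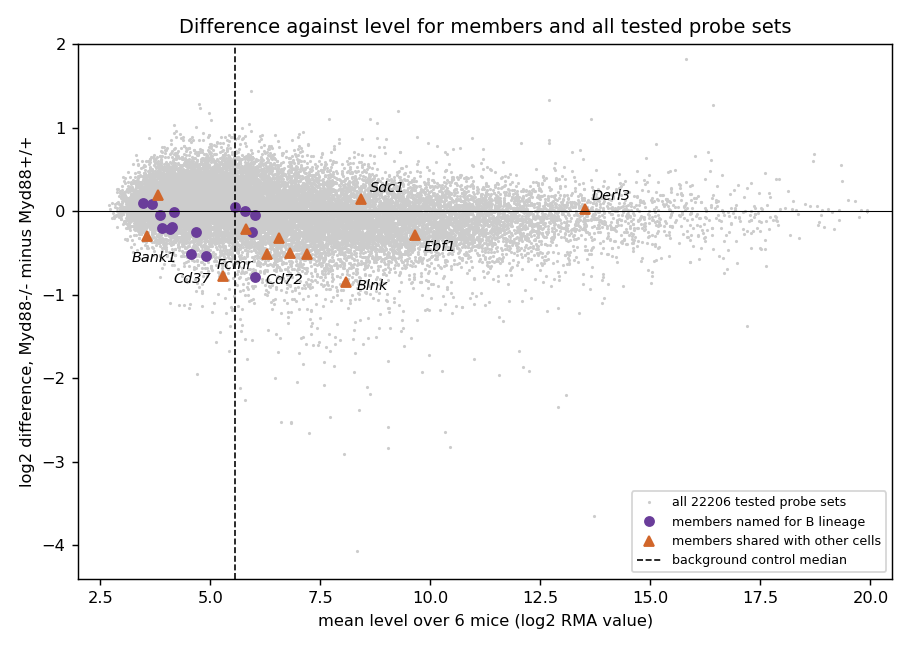
Mean level over the 6 glands against the log2 difference, Myd88-/- minus Myd88+/+, for the 22206 tested probe sets in grey and the members in colour. The dashed line is the background control median. The members lie within the range of the other probe sets, with Blnk, Cd72 and Cd37 at the lower edge of the dense part.

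The members were split by hand into 15 named for the B lineage and 12 listed as shared with other cells, and the groups were set side by side. The split was not read from these data and is not strict. Cr2 and Spib of the first group are also made outside B cells, while Mzb1 of the second was described above for B and plasma cells. Both group means of 10 of the 15, but of 2 of the 12, lay under the background median. The median log2 difference was −0.19 in the first and −0.31 in the second, and all 3 members whose groups did not overlap belonged to the second. After quantile normalization and after cyclic loess the split was different, since 3 of the 5 members without overlap, Bank1, Cd72 and Fcmr, were named for the B lineage and 2, Blnk and Cd37, were shared (6.79% and 7.53% of all tested probe sets did not overlap on the lower side). The same 5 members made up the unadjusted count under both (4.86% and 5.41% of all). The medians of the first and second group were then −0.28 and −0.34 after quantile normalization and −0.28 and −0.35 after cyclic loess. The members were then set against probe sets on the same side of the background median. Among all tested probe sets with both means under the background median, 33.3% were lower in Myd88-/- glands and the median difference was 0.09, while 9 of the 12 members under it were lower, with a median of −0.20. Among probe sets with neither mean under it, 58.8% were lower and the median was −0.06, while 10 of 13 such members were lower, with a median of −0.28. Quantile normalization, median centring and cyclic loess gave 22, 22 and 23 lower members of 27 and medians of −0.29, −0.24 and −0.30.

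The lower reading of the B lineage members depended on which wild-type mice were counted. Myd88+/+ replicate 3 was the highest of the 6 arrays in 16 of 27 members, and in 11 of the 15 named for the B lineage, where 14.3% of all tested probe sets had it highest. Myd88+/+ replicate 1 was the lowest of its group in 18 of 27 members, against 34.0% of all tested probe sets. The median deviation of the 15 B lineage members from their mean over the 6 glands was −0.19, 0.06 and 0.41 in Myd88+/+ replicates 1 to 3 and −0.08, −0.11 and 0.02 in Myd88-/- replicates 1 to 3. Myd88+/+ replicate 1 therefore lay below all 3 Myd88-/- glands. For the 12 shared members the deviations were 0.05, 0.20 and 0.25 and then −0.19, −0.12 and −0.16, with no overlap. Without Myd88+/+ replicate 3, 6 of the 15 B lineage members were lower and 9 higher, with a median log2 difference of 0.04, and the 12 shared members had −0.28. Without Myd88+/+ replicate 2, 11 of the 15 were still lower, but their median was −0.05, and that of the shared members was −0.36. Cd72 and Fcmr, the 2 B lineage members in the unadjusted count, left it when either of these mice was left out, so that it held 0 of the 15. Without Myd88+/+ replicate 3 the unadjusted count held 1 of the 27 members, Blnk, against 4.92% of all tested probe sets, and the count without overlap held Blnk, Ebf1 and Cd37, against 12.9%. Without Myd88+/+ replicate 1, 23 of 27 members were lower, with 7 in the unadjusted count (4.63% of all) and 12 without overlap (11.2% of all). Without Myd88+/+ replicate 2 the unadjusted count was 2 (4.52% of all) and 4 members did not overlap (11.6% of all). Leaving out Myd88-/- replicate 1, 2 or 3 gave 6 members without overlap each time, where 11.5%, 15.5% and 10.9% of all tested probe sets did not overlap, and unadjusted counts of 3, 4 and 3 members (3.99%, 7.32% and 3.77% of all).

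**Figure D4:**
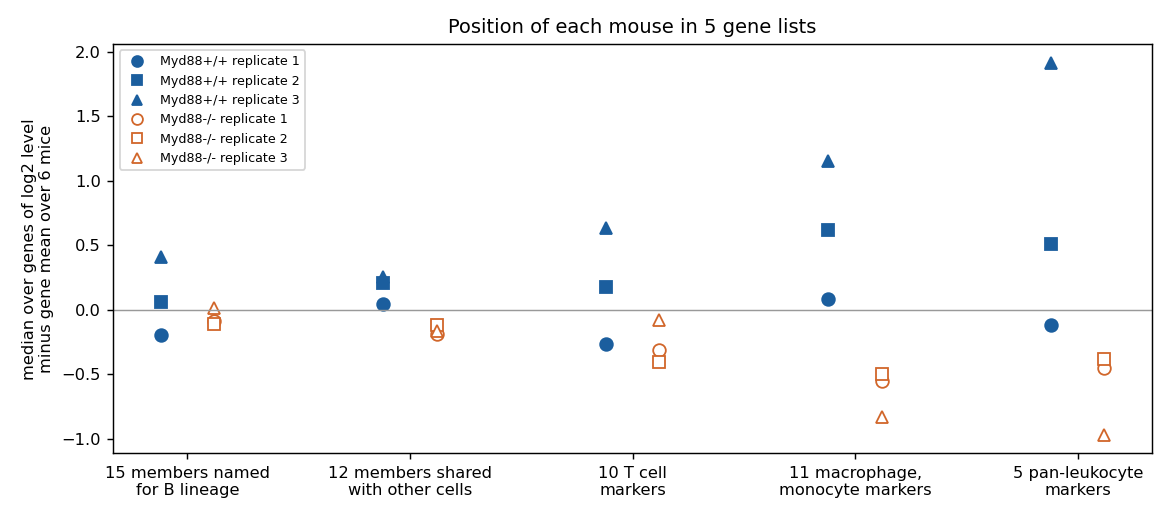
Median over genes of the log2 level minus each gene's mean over the 6 glands, 1 symbol per mouse, for 5 gene lists. Myd88+/+ replicate 3 is the highest point in every list, and Myd88+/+ replicate 1 lies among or below the Myd88-/- mice for the B lineage members, at −0.19, and within their range for the T cell markers.

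Markers of other leukocytes also read lower in Myd88-/- glands. This held for 11 of 11 measured macrophage and monocyte markers, with a median log2 difference of −1.23, and for 5 of 5 pan-leukocyte markers, with −1.40. Their brightest genes were Lyz2, the lysozyme of macrophages, with −1.91 and Ly86 with −1.73, and Ptprc, which encodes CD45, with −1.62 and Cd53 with −1.40. The summed linear signal of the macrophage markers was 4813 to 15253 in Myd88+/+ and 2419 to 3373 in Myd88-/- glands, and that of the pan-leukocyte markers 1576 to 6226 and 926 to 1392, with no marker of either list having both means under background. T cell markers read lower in 10 of 10, with a median of −0.44, among them Cd2 with −0.42 and Cd4 with −0.58, and their sums of 730 to 1701 and 617 to 859 overlapped. In none of these lists did a gene pass limma's adjusted test (0 genes in each), while 11 macrophage, 4 pan-leukocyte and 1 T cell marker were lower at an unadjusted p under 0.05, against 5.55% of all tested probe sets. The T cell count was 0 when either of Myd88-/- replicates 1 and 2 was dropped (3.99% and 7.32% of all tested probe sets). It was 6 when Myd88+/+ replicate 1 was dropped (4.63% of all) and 3 when Myd88+/+ replicate 2 was (4.52% of all). The count was also 3 after quantile normalization (4.86% of all) and after cyclic loess (5.41% of all). With the replicate number as a block it was 3, where 1035 of 22206 tested probe sets were lower at that p. It was 3 after median centring too, where the share over all was not taken. Without Myd88+/+ replicate 3 the medians were −0.94, −0.79 and −0.33, and 7 of the 10 T cell markers were lower. The unadjusted counts were then 8, 3 and 1, against 4.92% of all tested probe sets. Lyz2 then had −1.22 and Cd53 −0.79. The part of these cells in the values of Blnk, Cd37, Syk and Plcg2 was not tested. In whole glands, fewer cells of a type and less RNA per cell cannot be told apart. Of the 7 dendritic cell markers, 4 were lower and 3 higher, with a median of −0.02, Siglech, of plasmacytoid cells, at 0.34 and Irf8 at −0.02. In that list 2 of 7 markers were lower at an unadjusted p under 0.05 by limma, against 5.55% of all tested probe sets. They were Xcr1 with −0.68 and Itgax with −0.40, both named here after their values were seen. Both means of Itgax were under background. Of the lymph node stroma markers, 3 of 4 had both means under background, Ccl21a having −0.17 and Glycam1 −0.17.

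The rest of the pathway was read from lists of other genes. Of 27 other genes of B cell receptor signalling, 25 were measured, 24 of them lower and 1 higher, with a median log2 difference of −0.22. Of all tested probe sets 47.5% were lower, and 58.8% of those with neither mean under background. Myd88+/+ replicate 3 was the highest array for 13 of the 25, against 14.3% of all tested probe sets. How many of the 25 were lower without that mouse was not counted here. By limma 0 passed the adjusted p, and 5 were lower at an unadjusted p under 0.05, against 5.55% of all tested probe sets. These 5 included Ptprc, the phosphatase Ptpn6 with −0.71 and the inhibitory receptor Pirb with −1.11. The kinase Prkcb, which links the receptor to NF-kB, was another, with −0.90, and all of these are expressed outside B cells too. Without Myd88+/+ replicate 3, Ptpn6 had −0.46 and Prkcb −0.58. Of 15 other B cell genes, 13 were measured, 7 lower and 6 higher, with a median of −0.06. By limma 3 of the 13 were lower and 1 higher at an unadjusted p under 0.05, against 5.55% and 4.5% of all tested probe sets. The genes named next are the ones so counted, and their adjusted p by limma ran from 0.323 to 0.459. Cd180, a receptor related to the Toll-like family on B cells and myeloid cells, had −1.54, or −1.22 without Myd88+/+ replicate 3. Ikzf3, a lymphoid zinc finger factor, had −0.76. Cxcr5, the receptor that brings B cells into follicles, had −0.44 with both means under background, and Bach2, a factor that holds back plasma cell formation, had 0.48, with Myd88-/- glands at 9.31 to 9.86 and Myd88+/+ glands at 9.03 to 9.07.

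Among 14 other plasma cell genes 8 were lower and 6 higher, with a median difference of −0.06, and 4 had both means under background. By limma 1 gene, Slamf7, was lower at an unadjusted p under 0.05, against 5.55% of all tested probe sets. Slamf7, a receptor of plasma cells that NK cells and macrophages also carry, read 4.36, 5.60 and 7.06 in Myd88+/+ and 3.54, 4.13 and 3.50 in Myd88-/- glands, a log2 difference of −1.95 (limma adjusted p = 0.382) that was −1.26 without Myd88+/+ replicate 3. The Myd88-/- mean of Slamf7, 3.72, lay under the background median. The receptor gene Tnfrsf13b had −0.39 with both means under background. The secretory genes Sec11c and Fkbp11, which acinar cells also make, had 0.33 and 0.18. Of the 13 genes for antibody constant regions and the joining chain, 1 was measured, Jchain, the joining chain of IgA and IgM, at 8.02, 9.49 and 11.65 and then 9.21, 6.19 and 7.20. Its groups overlapped, and the log2 difference was −2.18 with a 95% interval of −4.25 to −0.11 (limma adjusted p = 0.481). Myd88+/+ replicate 3 was the highest for Jchain, as for most B lineage members, and without it the difference was −1.22. Of 8 genes of germinal centres, where B cells mature, 7 were measured, 5 with both means under background, and their median difference was −0.09. Bcl6, the factor that germinal centre B cells need, had −0.26, S1pr2 −0.22, Gcsam −0.12 and Rgs13 0.13.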

How the data were processed

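Total RNA of 6 submandibular glands was hybridised to Clariom S arrays. The authors deposited 1 log2 value per probe set, made with RMA (background correction, normalization between arrays, summary of probes) in the Transcriptome Analysis Console software, per the labels. Its version and the genome build were not given in the sources used here. That the scale is log2 was read from the range of the values. Of 28846 probe sets, 6640 controls were left out. The probe set with the highest mean stood for a gene, named through the platform annotation. Scanner files were not used here.

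Groups came from the sample titles. The 22206 tested probe sets were fitted with limma 3.58.1 under R 4.3.3, using lmFit and eBayes without trend or covariates, with Benjamini-Hochberg adjustment over all of them and a threshold of 0.05; the script was tested on simulated data. Nothing states that the mice were of separate litters, and the number of arrays limits the precision. Single genes were also compared by a two-sided exact permutation test. The members, lists and naming rule (all members, up to 4 genes of each other B or plasma cell list by unadjusted p, the 2 brightest of each marker list, Myd88) were chosen with earlier results of these data known. A further gene of the naming rule is not reported here.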

Additional observations from a re-analysis of the deposited data

How the results depend on the processing

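The alternatives were quantile normalization, median centring, cyclic loess, leaving out the dimmest 30% of probe sets, robust variances with an intensity trend, the replicate number as a block, the mean over a gene's probe sets and leaving out each mouse. Under all 13 settings 0 members passed limma's adjusted p, the smallest being 0.198. Of the 27 members, 16 kept their direction under every setting and 11 reversed under some setting. Of the 58 named genes 45 never reversed, among them Klk1 and Prol1, which sat at the ceiling and have no direction. Lower members without overlap numbered 5 after quantile normalization and 5 after cyclic loess against 3 (6.79% and 7.53% of all tested probe sets against 7.25%), and 3 to 12 when 1 mouse was left out (10.9% to 15.5% of all, the 12 beside 11.2%). Those at an unadjusted p under 0.05 then numbered 1 to 7 against 4 (3.77% to 7.32% of all). The median difference of the B lineage members ran from −0.31 to 0.041 without 1 mouse, and that of the shared members was −0.41 without the dimmest 30%, which left 16 of 27 members. Small differences changed sign: Ms4a1 read −0.0068 after quantile normalization and −0.022 after cyclic loess, Blk −0.055, −0.021 and −0.060 after quantile normalization, median centring and cyclic loess, Vpreb3 −0.0014 after cyclic loess and Derl3 −0.0007 after median centring. Without 1 mouse the difference ran from −0.40 to 0.14 for Cd79a, −0.086 to 0.081 for Cd79b, −0.20 to 0.32 for Ms4a1, −0.19 to 0.095 for Fcer2a, −0.027 to 0.28 for Cd22, −0.37 to 0.029 for Fcrla, −0.11 to 0.057 for Blk, −0.22 to 0.041 for Pax5, −0.0045 to 0.25 for Sdc1, −0.25 to 0.23 for Derl3, −0.50 to 0.069 for Bcl6 and −0.41 to 0.27 for Irf8. The causes were not tested. Same-numbered mice did not deviate together (correlations of −0.11, −0.15 and −0.02, and 0 of 6 arrays closest to their own number), and the replicate block left 4 members lower at an unadjusted p under 0.05, with 1035 lower and 781 higher probe sets against 1233 and 999. Members under the background control median have differences of uncertain size, and 3 arrays per group limit every value.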
